A study of Mus musculus with 2 samples.

Results

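Polyamine metabolism was followed through 10 genes on arrays of mouse liver 24 h after injury to the kidneys. The genes were chosen by name for their place in the pathway, with earlier results of these data known. Of these genes 7 had a probe set annotated to them alone, with 14 such probe sets, out of 18193 genes named in the whole table. The genes Amd1 and Paox had no probe set under their symbol, and every probe set of Sms was also annotated to its pseudogene. The animals were female wild-type C57BL/6 mice, 8 weeks old. The sham group had the operation without renal ischemia, and the AKI (acute kidney injury) group had 30 min of warm ischemia of both kidneys followed by reperfusion. Frozen liver of 3 mice per group was combined into 1 pool, and each pool went on 1 Affymetrix array, so a group is 1 measurement of mixed animals.

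Polyamines (putrescine, spermidine and spermine) are small cations that bind nucleic acids and are needed for growth and translation. Ornithine decarboxylase makes putrescine from ornithine, and spermidine synthase and spermine synthase then add aminopropyl groups taken from decarboxylated S-adenosylmethionine. The way back runs through acetylation or direct oxidation, and antizymes hold the pathway in check by carrying ornithine decarboxylase to the proteasome. In liver, ornithine decarboxylase is known for its rise during regeneration and hormone treatment.

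Since each group is a single array, the groups were not tested against each other and higher or lower refers to these 2 pools alone. A difference is log2(signal + 71.8) in the AKI pool less that in the sham pool. The added constant, the 25th percentile of all values, makes the differences of weak probe sets look smaller. A gene is represented by its strongest probe set, averaged over both arrays on the log2 scale, and genes were kept whose leading probe set reached the array's median signal of non-control probe sets (225.7 sham, 231.8 AKI) on at least 1 array. All 7 genes passed this filter, as did 13 of their 14 probe sets. The only repeat measurement is another probe set of the same gene. Among genes with several, these differed by an SD of 0.63 log2 units in the highest of 4 level classes, of 0.69 in each of the middle classes and of 0.82 in the lowest. That SD leaves out the variation between mice.

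The measured genes for making (Odc1, Srm) and for breaking down polyamines (Sat1, Smox) were higher in the AKI pool, and the genes that control ornithine decarboxylase protein were not. Of the 7 measured genes, 4 reached 2-fold on the higher side (Sat1, Smox, Srm and Odc1) and 0 on the lower side. The same held for 10.4% (higher) and 12.4% (lower) of all 13128 genes that passed the filter. Since the genes were not chosen blind to these data, these shares are set beside the counts as a description only. The median difference of the 7 genes was 1.55, beside -0.02 over all genes. In whole liver, more cells of a type and more RNA per cell cannot be told apart.

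**Figure D1:**
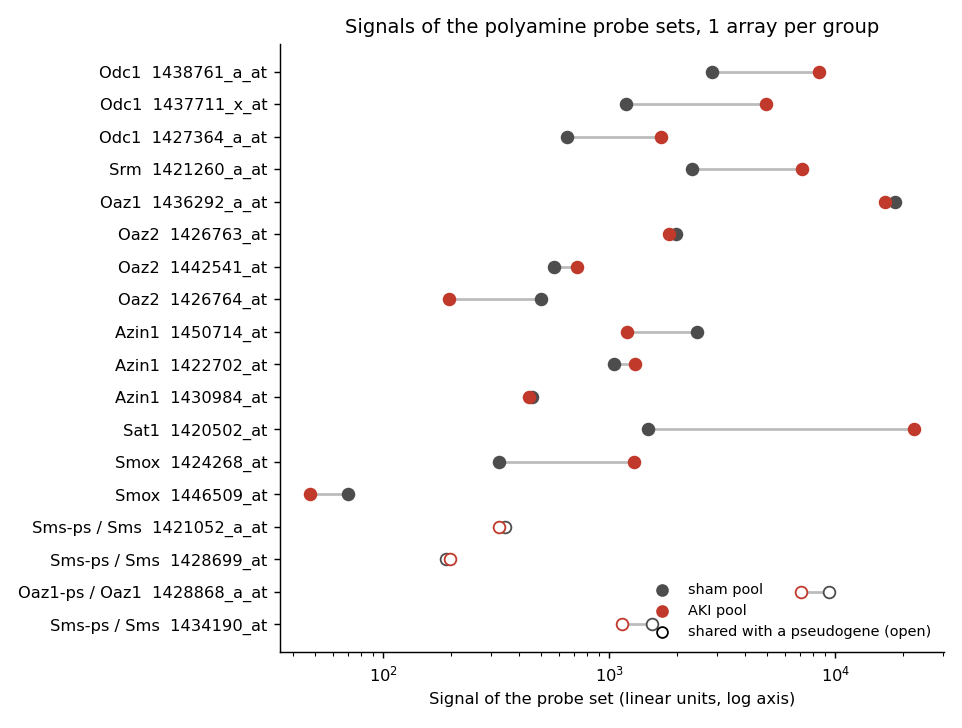
Signal of each polyamine probe set for sham (grey) and AKI (red), on a log axis, with open circles for probe sets also annotated to a pseudogene. The Sat1 probe set moved from 1487.1 to 22371.3, the 3 Odc1 probe sets and the Srm probe set lay to the right in the AKI pool, and the Oaz1 probe set stayed near its sham signal.

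Odc1 encodes ornithine decarboxylase, the first enzyme of the pathway and its best known point of control. Its leading probe set read 2846.6 for sham and 8454.6 for AKI, which is a difference of 1.55 with an SD between probe sets of 0.63. Its other probe sets went from 1192.1 to 4940.5 (1.99) and from 648.4 to 1687.8 (1.29). Odc1 was thus at least 2-fold higher by all 3 of its probe sets, and in each the AKI signal was above the sham signal. Such agreement was seen for 3.01% of the 1961 genes that have 3 or more probe sets above the filter. The 3 probe sets carry suffixes that mark probes shared between transcripts, and for the one at 1.99 (_x_at) these may belong to other genes. They were read on the same 2 arrays, so they are not independent replicates of the animals.

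Srm encodes spermidine synthase, which turns putrescine into spermidine. Its only probe set read 2323.3 for sham and 7093.0 for AKI, so that Srm differed by 1.58 (SD 0.63). By their leading probe sets Odc1 and Srm, which act in sequence, had differences of 1.55 and 1.58, apart by much less than the SD between probe sets. The Odc1 probe sets ranged from 1.29 to 1.99 and Srm has no repeat, so a like change of both genes cannot be read from this. The next enzyme, spermine synthase, could not be read alone. The 3 probe sets annotated to both Sms and its pseudogene had differences of -0.07, 0.04 and -0.42, with signals of 345.6 and 326.0, of 189.1 and 196.6, and of 1548.9 and 1143.4 in the sham and AKI pools. None of these shared probe sets differed by 2-fold.

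Sat1 encodes spermidine/spermine N1-acetyltransferase, which acetylates polyamines so that they can be exported or oxidized. It had the largest difference of the 7 genes. The Sat1 signal was 1487.1 after sham surgery and 22371.3 after renal ischemia, a ratio of 15.04 and a log2 difference of 3.85 (SD 0.63). By size it stood at place 33 from the top of all 13128 genes. A single probe set measures Sat1, which leaves its value without a repeat on the array.

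Smox encodes spermine oxidase, which turns spermine directly into spermidine and releases hydrogen peroxide. Its leading probe set went from 326.4 in the sham pool to 1294.0 in the AKI pool, a difference of 1.78 with an SD of 0.69. Its other probe set was below the level filter on both arrays, at 69.9 and 47.6, and did not share this difference (-0.25). With both probe sets averaged Smox was at 0.77, under 2-fold. Smox, Srm and Odc1 stood at places 389, 542 and 574 from the top of all genes.

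**Figure D2:**
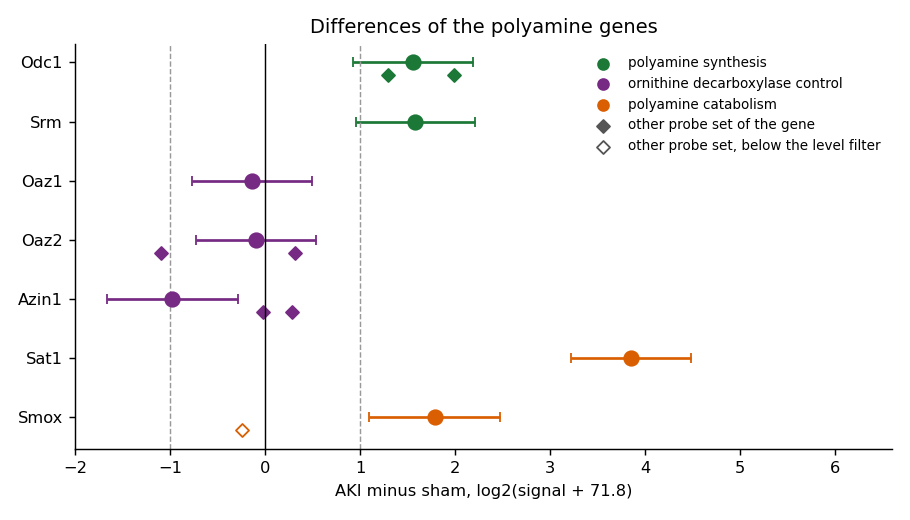
Difference AKI minus sham of the 7 measured genes in log2 units, where circles are the probe set that stands for the gene, bars are the SD between probe sets of genes at that level, diamonds are the other probe sets and dashed lines mark 2-fold. Sat1 lies at 3.85, Odc1, Srm and Smox lie between 1.55 and 1.78, and Azin1 lies at -0.98. Oaz1 and Oaz2 lie at -0.14 and -0.10, though above 0 with centring on hybridization controls.

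The antizymes are small proteins that bind ornithine decarboxylase, carry it to the proteasome and block polyamine uptake. Their synthesis needs a ribosomal frameshift that polyamines promote, so much of their control lies beyond the mRNA level measured here. Oaz1, the main antizyme gene, read 18348.9 for sham and 16620.7 for AKI (-0.14, SD 0.63). A further probe set, annotated to both Oaz1 and its pseudogene, went from 9340.5 to 7023.2 (-0.41). Neither differed by 2-fold.

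Oaz2 encodes a second, related antizyme. Its leading probe set was nearly level, at 1983.5 for sham and 1841.9 for AKI (-0.10, SD 0.63). Its other probe sets went opposite ways, from 568.3 to 722.3 (0.31) and from 500.0 to 195.3 (-1.10). The range over its 3 probe sets, -1.10 to 0.31, spans 0, and the sign of the Oaz1 and Oaz2 differences turned to 0.16 and 0.19 with the arrays centred on hybridization controls.

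Azin1 encodes antizyme inhibitor 1, a relative of ornithine decarboxylase without its activity that binds antizyme and so frees the enzyme. Its leading probe set was lower in the AKI pool, at 1204.3 against 2445.4 in the sham pool, a difference of -0.98 with an SD of 0.69. Its other probe sets did not show this, with signals of 1053.3 and 1294.1 (0.28) and of 455.9 and 443.3 (-0.03). The leading value lies just short of 2-fold, and with a pseudocount of 1 it was -1.02. The mean over its 3 probe sets was -0.25.

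**Figure D3:**
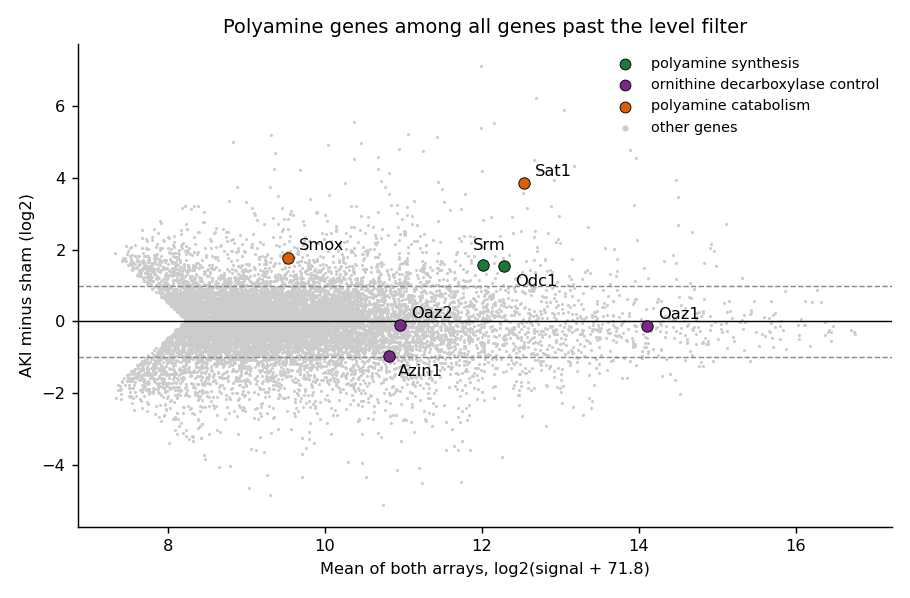
Each gene past the level filter (grey, 13128 genes) by its mean log2 level over both arrays and its difference AKI minus sham, with the 7 polyamine genes coloured by role and dashed lines at 2-fold. Sat1 stands apart at the upper edge of the cloud, while Oaz1 and Oaz2 lie close to 0.

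The stretches upstream of Odc1 and Sat1, which were higher together, are shown beside that of Oaz1, which was not, so that their base makeup can be compared. RefSeq windows for assembly GRCm38.p6 were at hand for 8 of the 10 genes and not for Srm or Azin1. Motifs were searched on both strands in the 250 bases before each start site, and capitals mark the GC box (GGGCGG, or CCGCCC where it lies on the opposite strand), the only motif of the 3 searched that these stretches hold. The Odc1 stretch ends before the first annotated start of the gene.
Odc1 (chr12:17544623-17544807, plus strand): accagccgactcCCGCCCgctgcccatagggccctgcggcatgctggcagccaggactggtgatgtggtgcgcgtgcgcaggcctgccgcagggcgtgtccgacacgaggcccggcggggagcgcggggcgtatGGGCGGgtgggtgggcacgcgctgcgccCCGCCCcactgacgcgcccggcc
Sat1 (chrX:155216450-155216699, minus strand): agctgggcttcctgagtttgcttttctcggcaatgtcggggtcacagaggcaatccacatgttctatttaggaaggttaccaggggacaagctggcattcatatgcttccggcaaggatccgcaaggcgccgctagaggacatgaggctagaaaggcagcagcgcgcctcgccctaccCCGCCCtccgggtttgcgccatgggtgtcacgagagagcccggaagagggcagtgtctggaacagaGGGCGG
Oaz1 (chr10:80826406-80826655, plus strand): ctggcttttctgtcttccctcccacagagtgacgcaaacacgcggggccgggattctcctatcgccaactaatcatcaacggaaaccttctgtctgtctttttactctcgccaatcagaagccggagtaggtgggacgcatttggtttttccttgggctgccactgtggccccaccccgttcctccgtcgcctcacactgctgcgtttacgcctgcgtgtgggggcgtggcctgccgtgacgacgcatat
The printed Odc1 stretch of 185 bases holds 3 GC boxes, the Sat1 stretch 2 and the Oaz1 stretch 0. In their full windows of 250 bases Odc1 has 4 GC boxes and Smox has 6, but Oaz2, which was not higher, has 3. A GC box occurs in 32.7% of all 32851 windows. The E-box CACGTG and the TATA box TATAAA, found in 6.02% and 12.4% of all windows, were in none of the windows of Odc1, Sat1, Smox, Oaz1 and Oaz2. The GC content of the windows was 80.0% for Odc1, 68.0% for Smox, 59.6% for Sat1 and 58.0% for both Oaz1 and Oaz2, beside a median of 52.4%. A match is a description of letters and no measure of binding.

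Genes around the pathway were read from lists written for their roles, also with earlier results of these data known. Shares of all genes beside their counts are a description only. Of the 14 genes of arginine and ornithine supply that passed the filter, 0 were 2-fold or more higher and 2 were 2-fold or more lower, a share near the 12.4% of all genes that were lower by as much. The lower count was 4 with centring on reference genes and 1 where hybridization controls set the zero. It was 3 with averaged probe sets and 3 without probe sets that several transcripts share. The 2 lower genes were Slc25a15 (-1.47), the carrier that moves ornithine into mitochondria, and Agmat (-1.08), the enzyme that makes putrescine from agmatine. Slc25a15 went from 7496.9 to 2669.0 and Agmat from 7638.7 to 3574.3. The other Slc25a15 probe set was at -1.04. Arg1, the liver arginase that makes ornithine, was nearly level at 38812.9 and 43624.2 (0.17). Oat, which uses ornithine for glutamate synthesis, was at -0.58. Otc, whose product also uses ornithine, was at -0.54 by its leading probe set, but its other 2 were at -2.96 and -0.17. The median of the list was -0.22, beside -0.02 over all genes, and it turned to 0.08 with the arrays centred on hybridization controls.

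S-adenosylmethionine gives the aminopropyl group for spermidine and spermine, and methylthioadenosine, the by-product, is salvaged back to methionine. Of 12 genes of this supply and salvage list that passed the filter, 6 were lower by 2-fold or more and 0 higher, with a median of -0.87, where 12.4% of all genes were lower by as much. The salvage dioxygenase gene Adi1 went from 4162.6 to 1145.9 (-1.80), and its other probe sets were at -1.85 and -1.08. The isomerase gene Mri1 was at -1.45, but its other probe set, below the filter, was at -0.27. Mtap, the phosphorylase that takes up methylthioadenosine at the start of salvage, was named after its values were seen. It went from 1140.6 to 462.4 (-1.18), with its other 3 probe sets between -1.16 and -0.39. Of the other salvage genes listed, Apip was at -0.56, within 2-fold. Enoph1, below the filter, was at -0.14, and its other probe set was at 0.93. So by their leading probe sets Mtap, Mri1 and Adi1, which handle the by-product of spermidine synthesis, were lower where Odc1 and Srm were higher. Only for Adi1 did every probe set reach 2-fold, and Apip and Enoph1 did not reach it.

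In the same list the methyltransferase genes that remake methionine from homocysteine, Bhmt2 (-4.15) and Bhmt (-1.26), and Cbs (-1.97), which draws homocysteine off to cysteine, were lower too. The other probe sets of Bhmt2 and Cbs were at -3.16 and -2.25. Mat1a, the liver enzyme that makes S-adenosylmethionine, was level at 34674.7 and 32934.5 (-0.07). The lower count of this list was 6 under 3 of the 4 other scalings and 4 with centring on hybridization controls. The higher count was 0 under each of them. The lower count was also 4 with averaged probe sets and 4 without probe sets that several transcripts share. It was 5 with a pseudocount of the table median (228.7). The median of the list lay between -1.16 and -0.58 over the 4 other scalings. It was -0.56 both without the level filter and without probe sets that several transcripts share.

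Spermidine also serves to modify the translation factor eIF5A with hypusine. All 4 genes of this step were measured and none differed by 2-fold, beside 10.4% (higher) and 12.4% (lower) of all genes. Eif5a itself went from 15559.8 to 24048.6 (0.63), with its other probe set at 0.43. Eif5a2 was at 0.31. The modifying enzymes Dhps and Dohh were at -0.33 and -0.32, and their other probe sets at -0.81 and 0.03, the latter below the filter. Of 9 transport genes with a probe set, 5 passed the filter. Among these, 1 was at least 2-fold lower and 0 were higher, beside 12.4% and 10.4% of all genes. The lower gene was Slc47a1 (-1.38), which exports organic cations. Its signals were 5720.6 for sham and 2147.1 for AKI. Without the level filter 1 of the 9 was at least 2-fold higher, the organic cation transporter gene Slc22a2, from a weak 69.6 to 228.9 (1.09), and it was named after its values were seen.

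**Figure D4:**
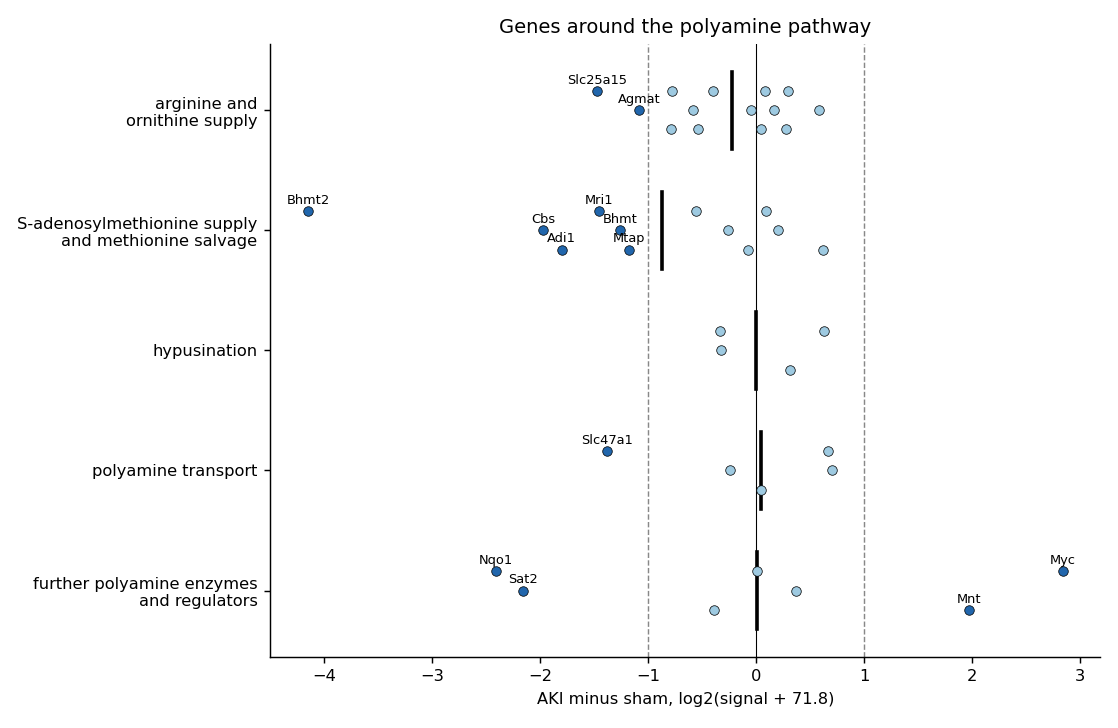
Difference AKI minus sham in log2 units for the genes past the level filter in 5 lists around the pathway, with dark named points for genes past 2-fold (dashed lines) and a black bar for each list's median. The salvage and S-adenosylmethionine list lies furthest to the left, with a median of -0.87, and Myc lies furthest to the right, at 2.84.

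Of 7 further enzymes and regulators that passed the filter, 2 reached 2-fold on the higher side and 2 on the lower. Among all genes, 10.4% were higher and 12.4% lower by as much. The median of the list was 0.01, and it lay between -0.47 and 0.37 over the processing alternatives. The higher count was 1 without probe sets that several transcripts share, and the lower count was 1 with the stricter level filter (the 75th percentile). Sat2, a paralogue of Sat1 whose product acetylates thialysine, went the other way from Sat1, from 1584.4 in the sham pool to 299.6 in the AKI pool (-2.16). It too has a single probe set. Nqo1, a quinone reductase that can bind ornithine decarboxylase and slow its breakdown, went from 528.1 to 40.7 (-2.41). Myc, a transcription factor for which Odc1 is a classical target, went from 192.7 to 1828.3 (2.84). Mnt, a repressor that competes for the same sites, was at 1.97, from 458.8 to 2003.4, with its other probe set at 0.85. The leading probe set of Azin2, the other antizyme inhibitor gene, was at 0.01, yet its others were at -2.05 and -0.34 (chosen for mention after its values were seen).

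The tissue label was checked with hepatocyte markers. All 10 measured of 12 listed had signals from 9432.5 (Hnf4a, AKI) to 124515.9 (Alb, sham). Of these markers 0 differed by 2-fold, beside 10.4% (higher) and 12.4% (lower) of all genes. With the arrays centred on reference genes 1 did, and 1 when centred on hybridization controls. Of 6 neutrophil markers past the filter, 3 were at least 2-fold higher in the AKI pool (S100a8 3.17, S100a9 2.72, Ngp 1.12) and 0 lower, where 10.4% of all genes were higher by as much. That neutrophil count was 2 with centring on reference genes and without probe sets that several transcripts share, and 4 with centring on hybridization controls. Elane (0.76), Csf3r (0.14) and Mpo (-0.03) lay within 2-fold, as did Camp (0.37) and Cxcr2 (-0.34), both below the filter. The summed signal of the 8 neutrophil markers with a probe set went from 2692.5 for sham to 7377.8 for AKI. Most of that rise lay in S100a8 (161.4 to 2023.4), S100a9 (191.2 to 1666.6) and Ngp (889.1 to 2012.4). Of 10 macrophage markers, 6 lay within 2-fold, 1 was higher (Marco) and 3 were lower (Clec4f, Cd5l and C1qa). Among all genes, 10.4% were higher and 12.4% lower by as much. The summed signal of the macrophage markers was 16054.7 for sham and 10040.3 for AKI, and their lower count was 1 with centring on hybridization controls. Lymphocyte markers summed to 4420.9 and 5420.1, with 1 of 5 counted genes higher (Nkg7) and 0 lower, beside 10.4% and 12.4% of all genes. That higher count was 0 with the larger pseudocount, with the stricter level filter and with centring on reference genes, and 2 where hybridization controls set the zero. Endothelial and stellate cell markers summed to 11102.2 and 8167.2, with 1 of 10 higher (Lyve1) and 2 lower (Clec4g and Lrat). These counts are near the shares of all genes, 10.4% and 12.4%. The other probe sets of Lyve1 and Clec4g were at 2.71 and -1.47, and that of Lrat, below the filter, was at -0.17. The lower count of this list was 1 with averaged probe sets and with the stricter level filter. No marker was listed at 0, and the lowest signal was 18.1, for the neutrophil gene Camp in the sham pool. The part of these cell types in the Sat1, Smox, Srm and Odc1 differences was not tested.

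The scaling sets the zero of every difference. On both arrays the mean signal, with 2% of probe sets trimmed at each end, was 500.00. Of the genes past 2-fold, 45.6% were higher under the scaling as deposited. Centring on 18 hybridization controls made this 67.5%, centring on 10 reference genes 25.9%, and these steps moved the median of all genes to 0.28 and -0.31. The differences of Odc1, Srm, Sat1 and Smox stayed above 2-fold under each of the 4 other scalings, with a lowest value of 1.26 for Odc1. Azin1 passed 2-fold on the lower side with centring on reference genes (-1.27) and with median centring (-1.01).

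**Figure D5:**
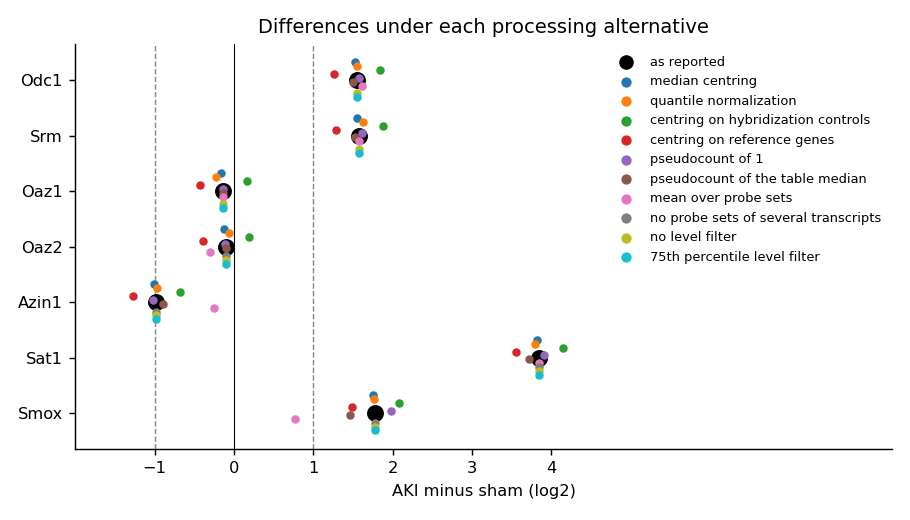
Difference AKI minus sham in log2 units of each polyamine gene as reported (large black points) and under each of 10 processing alternatives (small coloured points), with dashed lines at 2-fold. Sat1 ranged from 3.56 to 4.15, and averaging probe sets moved Smox to 0.77 and Azin1 to -0.25.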

How the data were processed

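The authors deposited linear signal intensity values of probe sets for 1 sham and 1 AKI array. The software that produced the signals was not given in the sources used here. Per the labels, biotinylated cRNA was made from 8 ug of Trizol-extracted total RNA, with 100 mg of liver from each of 3 mice in a pool. An equal trimmed mean on both arrays shows that the authors had scaled them to a common target, which removes any true difference in total mRNA. Of 45101 probe sets, 64 are controls, 34945 carry 1 gene symbol in the platform annotation and 932 carry several. The latter were assigned to no gene, and 9160 have no symbol. The table names no genome build. The number of arrays limits the precision.

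Differences were taken as log2(signal + 71.8), AKI minus sham. The SD between probe sets of a gene came from 5149 genes with at least 2 past the level filter. A difference was counted at 2-fold or more. The members and lists were chosen with earlier results of these data known. All 10 genes were named with every probe set, and in each list up to 5 counted genes past 2-fold with the largest difference. Mtap, Azin2, Slc22a2, Apip, Enoph1, Otc and the neutrophil markers within 2-fold were added later, with their values seen. Genes used only as a level comparison were named for their roles. With 2 arrays no gene could be named for likeness of pattern. Alternatives were other scalings, pseudocounts of 1 and of the table median (228.7), averaging probe sets, dropping probe sets whose names end in _a_at, _s_at or _x_at, no level filter, and a filter at the 75th percentile. The calculation was tested on simulated data with known differences larger than 2-fold. That test checks the code and cannot show how reliable calls near 2-fold are in these data. Versions were pandas 2.3.3, numpy 2.4.6, scipy 1.17.1 and matplotlib 3.10.9 under Python 3.11.15.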

Additional observations from a re-analysis of the deposited data

How the results depend on the processing

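No paired analysis was possible because each group is 1 array, and for the same reason no replicate could be left out. Each of the 10 alternatives was compared with the reported value, and a value was taken as moved when it shifted by more than the SD between probe sets (for a median, that SD over the root of the number of genes) or a count by more than 1.5 times. The differences of Odc1, Srm, Oaz1, Oaz2 and Sat1 moved under none of the alternatives that gave a value. Averaging probe sets moved Smox to 0.77 and Azin1 to -0.25, and with it 3 genes were at least 2-fold higher. Without probe sets that several transcripts share, Odc1, Srm and Oaz1 had no value, and 2 of the remaining 4 genes were at least 2-fold higher. The count of genes at least 2-fold lower, 0 as reported, was 1 (Azin1) with median centring, centring on reference genes and a pseudocount of 1. The median of the polyamine genes, 1.55, was 1.84 with centring on hybridization controls, 1.26 with centring on reference genes, 0.77 with averaged probe sets and 0.84 without shared probe sets. Of 300 values recomputed for the related and marker lists, 263 stayed within this spread and 37 moved. A change of sign was counted only for medians past 2-fold, and none of these lists had such a median. Smaller medians did change sign. The arginine and ornithine supply median went from -0.22 to 0.08 with centring on hybridization controls. The lymphocyte marker median went from 0.22 to -0.07 with centring on reference genes. Weak signals limit Smox most, since its sham signal of 326.4 lies near the level filter.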
